A study of Mus musculus with 3 samples.

Results

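B1-like B cells of mouse peripheral blood were selected on RNA from 4 genes, Cacna1e, Il5ra, Nid1 and Sox5, and 351 of 12792 cells kept after quality filtering met the rule. A cell had to carry at least 200 detected genes and at most 10% mitochondrial UMIs (unique molecular identifiers, each standing for 1 captured transcript). It also needed 3 or more UMIs of Cd79a, Cd79b and Ms4a1 together, which mark B cells, and 3 or more UMIs of the 4 selecting genes together, called the gate from here on. Cells with more than 2 UMIs of the pro-B genes Vpreb1, Igll1, Dntt and Rag1, or more than 1 UMI of Cd3e and F13a1, were left out. By the same B-cell and exclusion criteria there were 740 B cells in all, of which 389 carried 0 to 2 gate UMIs and are called other B cells. The name B1-like held for at most some of the cells. Several B-1 markers outside the gate, such as Fcrl5, were more frequent in the 160 cells with 10 or more gate UMIs than in other B cells. Many single cells showed no Fcrl5, which 17 of the 68 naive and 24 of the 77 D11 cells carried. At D14, 8 of the 15 did. Classical surface markers such as Cd5 and Itgam were sparse in these cells, and their lower Ighd in the naive and D11 libraries was not seen at D14. That split was set with the values already known. The 191 cells with 3 to 9 gate UMIs lay nearer to other B cells in most of the genes described here, with exceptions such as Agbl1.

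The blood came from young adult female wild-type Balb/C mice, and the libraries held leukocytes after red cell lysis and removal of dead cells. The naive library came from mice without leukemia, and the other libraries came from mice carrying BBC2 cells, sampled at day 11 (D11, intermediate disease) and day 14 (D14, late disease) after engraftment. BBC2 is a transplantable, pro-B-like line grown from a stem cell leukemia and lymphoma syndrome (SCLL) that the BCR-FGFR1 fusion kinase drove, and its cells co-express GFP, so D11 and D14 blood held leukemic cells of the B lineage as well as host cells. Each condition was 1 library, the number of mice behind each library is not given in the sources used here, and no comparison between conditions could be tested. Every difference below is therefore a description of these libraries, and the bracketed 95% intervals are exact counting intervals that cover counting error alone, with neither the spread between mice nor that between cells.

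B-1 cells are a self-renewing B-cell lineage that arises largely before and around birth and lives mainly in the peritoneal and pleural cavities, with smaller numbers in spleen and blood. They secrete natural IgM, carry much surface IgM and little IgD and CD23, and need interleukin 5 through its receptor, whose alpha chain is Il5ra, for their maintenance. Follicular (B-2) B cells, the main circulating type, carry IgD, CD21 and CD23. Among the gate genes, Cacna1e encodes a pore-forming subunit of a voltage-gated calcium channel, Nid1 a basement membrane protein (nidogen 1) and Sox5 a transcription factor of the SoxD family.

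The 3 libraries held 5386 (naive), 8536 (D11) and 9337 (D14) barcodes with 30362408, 57640396 and 65861863 UMIs. After filtering, 3811, 4567 and 4414 cells were kept. The B1-like cells had median depths of 6869.5 (naive), 7100 (D11) and 9412 (D14) UMIs, against 5800, 5068.5 and 6548 in other B cells, so the B1-like cells were the deeper ones in every library. Shares of cells with a UMI are therefore also given below for some markers with every cell thinned to 2000 UMIs. The sums of the B1-like cells came to 1364577, 1210930 and 330270 UMIs. Levels are given as CPM, the UMIs of a gene divided by the UMIs of all genes, both summed over a group of cells, and scaled to 1000000. No barcode was shared between B1-like cells of different libraries, and 1 barcode of a D11 B1-like cell was also kept in the D14 library.

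B1-like cells made up 174 of 375 B cells (46.4% [41.3 to 51.6]) in the naive library, 148 of 294 (50.3% [44.5 to 56.2]) at D11 and 29 of 71 (40.8% [29.3 to 53.2]) at D14. By this rule the D11 to naive ratio of the shares was 1.08 [0.865 to 1.36] and the D14 to naive ratio 0.88 [0.573 to 1.31], both with intervals that include 1. Under stricter quality limits (500 genes or more, mitochondrial UMIs of 5% or less) the D11 to naive ratio was 0.994 [0.775 to 1.27], from 50.5% and 50.2%. Rules that allow for depth gave larger D11 ratios. With every B cell thinned to 2000 UMIs and at least 1 gate UMI left, the shares were 50.9% (naive) and 59.9% (D11), a ratio of 1.18 [0.949 to 1.45]. With 10 or more gate UMIs per 10000 UMIs, a rule chosen after the values were seen, they were 26.9% (101 of 375) and 36.7% (108 of 294), a ratio of 1.36 [1.03 to 1.81], beyond counting error. Among all cells kept, B1-like cells were 4.57% (naive), 3.24% (D11) and 0.657% (D14), next to 9.84%, 6.44% and 1.61% for B cells as a whole. Against naive, the share of all cells was 0.71 times [0.566 to 0.889] at D11 and 0.144 times [0.0936 to 0.214] at D14. A smaller share of all cells cannot be told apart from a larger number of other cells in the same blood.

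**Figure D1:**
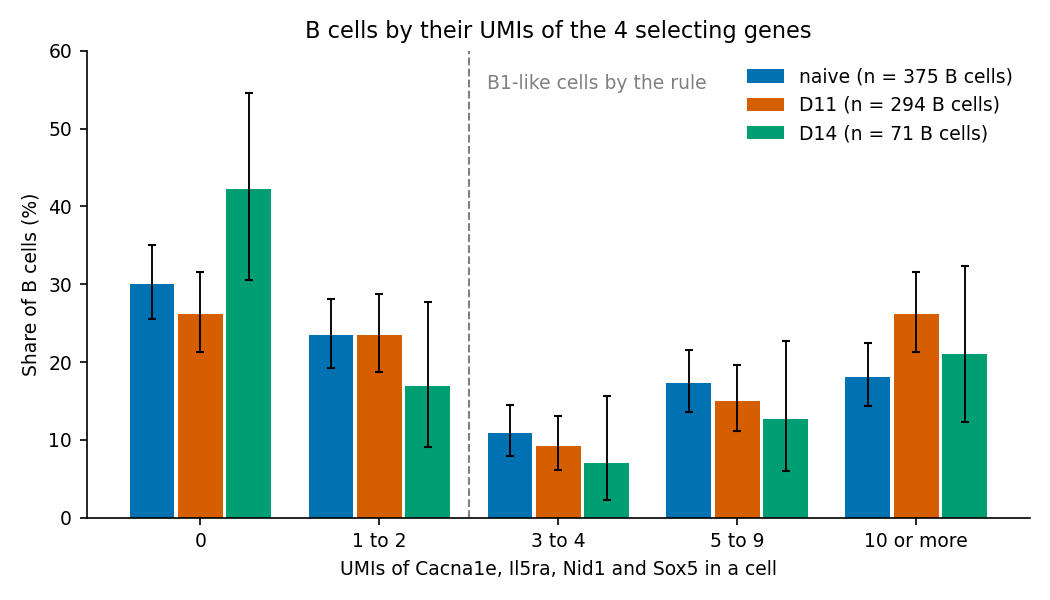
Percent of the B cells of each library (y axis) by the number of gate UMIs per cell (x axis, Cacna1e, Il5ra, Nid1 and Sox5 together), with exact 95% binomial intervals as error bars and a dashed line at the rule's minimum of 3 UMIs. The top class of 10 or more UMIs held 18.1% of naive, 26.2% of D11 and 21.1% of D14 B cells.

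Gate counts covered a wide range, with a highest cell of 96 (naive), 144 (D11) and 105 (D14) UMIs, and many cells lay near the rule's minimum. In the naive library 113 B cells had no gate UMI, 88 had 1 or 2, 41 had 3 or 4, 65 had 5 to 9 and 68 had 10 or more, and at D11 the same classes held 77, 69, 27, 44 and 77 cells. Just outside the rule, 37 naive, 26 D11 and 4 D14 B cells had exactly 2 gate UMIs, and just inside it 24, 17 and 3 cells had exactly 3. The plot of B cells by gate UMIs shows classes of unequal width, of which the last is open-ended. The split at 10 was chosen after the values were seen. Cells with 10 or more gate UMIs were 18.1% [14.4 to 22.4] of naive B cells, 26.2% [21.3 to 31.6] of D11 B cells and 21.1% [12.3 to 32.4] of D14 B cells. The D11 share was 1.44 times [1.03 to 2.03] the naive share. These cells had median depths of 8957.5, 8900 and 11395 UMIs, against 6369, 5770 and 7285 for cells with 3 to 9 gate UMIs, so depth moved with the split.

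Cells that are not B cells seldom reached the gate. Of naive T cells, which had a higher median depth (9164 UMIs) than the B1-like cells, 2.23% carried 3 or more gate UMIs and 0.257% carried 10 or more. Of D11 T cells 0.813% (n = 246) carried 3 or more, and of D14 T cells 4.08% (n = 49). Neutrophils did so in 0.0967% (naive), 0.253% (D11) and 0.197% (D14) of cells. The pro-B cells that the rule leaves out, which include the engrafted leukemia, reached 3 gate UMIs in 8 of 98 cells at D11 and in 40 of 747 cells at D14, at median depths of 30985.5 and 32409 UMIs.

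Cacna1e (chr1:154390731-154884501, minus strand, mm10) was the gate gene seen in most B1-like cells, with a UMI in 134 of 174 cells (naive), 126 of 148 (D11) and 25 of 29 (D14). Its summed level in B1-like cells was 751 (naive), 928 (D11) and 893 (D14) CPM, against 45.2, 68.4 and 20.8 CPM in other B cells. Sox5 (chr6:143828425-144781977, minus strand) was detected in 106, 92 and 20 cells, at 588, 947 and 1020 CPM. Il5ra (chr6:106710357-106749037, minus strand), the interleukin 5 receptor alpha chain, was detected in 86, 62 and 13 cells, at 180 (naive), 169 (D11) and 215 (D14) CPM. Nid1 (chr13:13437551-13512269, plus strand) was the rarest, in 22, 28 and 12 cells. These levels are what the rule selected, so neither the gap to other B cells nor their course across libraries is a finding.

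How far the 4 genes occurred together was read by leaving each out of the rule in turn and looking at it in cells chosen by the other 3. Naive cells chosen without Cacna1e held it at 700 CPM, 2.78-fold above the B cells not chosen, and D11 cells at 937 CPM, 3.22-fold above. Sox5 stood 2.91-fold higher in naive and 3.28-fold higher in D11 cells chosen by the other genes. For Il5ra the ratio was 1.55-fold in the naive library, where the unselected B cells still held 89.6 CPM, and 5.07-fold at D11. Nid1 decided the membership of no cell, since the rule without it picked the same 351 cells. It nevertheless gave 52 UMIs in 22 of the 174 naive B1-like cells and 0 UMIs in the 201 other B cells, which is at least 14.9-fold higher against a floor of 3 UMIs over the group, and it was 7.12-fold higher at D11 (47.9 against 6.72 CPM). In 58 naive, 52 D11 and 8 D14 B1-like cells a single gate gene gave all the gate UMIs, and all 4 genes were detected in 13, 17 and 7 cells. Of those 37 cells with all 4 genes, 35 (11, 17 and 7) had 10 or more gate UMIs.

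Among B-1 markers outside the gate, Fcrl5, an inhibitory Fc-receptor-like protein, was found almost entirely in cells with 10 or more gate UMIs. Its level in those cells was 59.4 CPM in the naive library, 68.2 CPM at D11 and 185 CPM at D14. It was detected in 17 of 68 naive cells with 10 or more gate UMIs, in 0 of 106 with 3 to 9 and in 2 of 201 other B cells. At D11 it was detected in 24 of 77, 5 of 71 and 1 of 146 cells, and in T cells of the same libraries it was seen in 1 of 1167 (naive) and 0 of 246 (D11). Thinning every cell to 2000 UMIs, which leaves out 1 of the 68 naive cells, kept the order: 5.97% [1.65 to 14.6] of naive cells with 10 or more gate UMIs still showed Fcrl5, against 0 of 105 cells with 3 to 9, and 14.3% [7.35 to 24.1] against 1.49% at D11.

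Other B-1 markers with an excess, picked here from a longer list, had it mainly in the same cells. Some genes of that list were lower in B1-like cells, as counted below with the gene lists. Bhlhe41, a transcriptional repressor needed for B-1a cells, was at 73.1 CPM in naive cells with 10 or more gate UMIs, 18.4 CPM in those with 3 to 9 and 7.67 CPM in other B cells, and at 42.9, 7.16 and 5.6 CPM at D11. Zbtb32, a zinc-finger repressor of the BTB family, was at 19.8, 0 and 0.852 CPM in the same naive cells and at 64.4, 7.16 and 1.12 CPM at D11. Pstpip2, an adaptor protein that binds the actin cytoskeleton, was at 142 CPM in naive and 141 CPM in D11 cells with 10 or more gate UMIs. In cells with 3 to 9 it was at 8.48 CPM (naive) and 0 (D11), no higher than the 9.38 and 12.3 CPM of other B cells. Ahnak, a very large scaffold protein, was at 125 CPM at 0 gate UMIs, 231 CPM at 5 to 9 and 548 CPM at 10 or more in the naive library, and at 163, 202 and 761 CPM at D11. It was not particular to these cells, since 41.6% of naive and 65% of D11 T cells showed it, beside 67.6% and 72.7% of cells with 10 or more gate UMIs. At D14 it was at 884 CPM in B1-like and 761 CPM in other B cells (log2 ratio 0.22 [-0.01 to 0.44]). The integrin chain Itgb1 is not in the B-1 list but among the homing receptors, of which it had the highest ratio, as given below. It was at 164 CPM in naive and 192 CPM in D11 cells with 10 or more, against 40.9 and 34.7 CPM in other B cells.

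**Figure D2:**
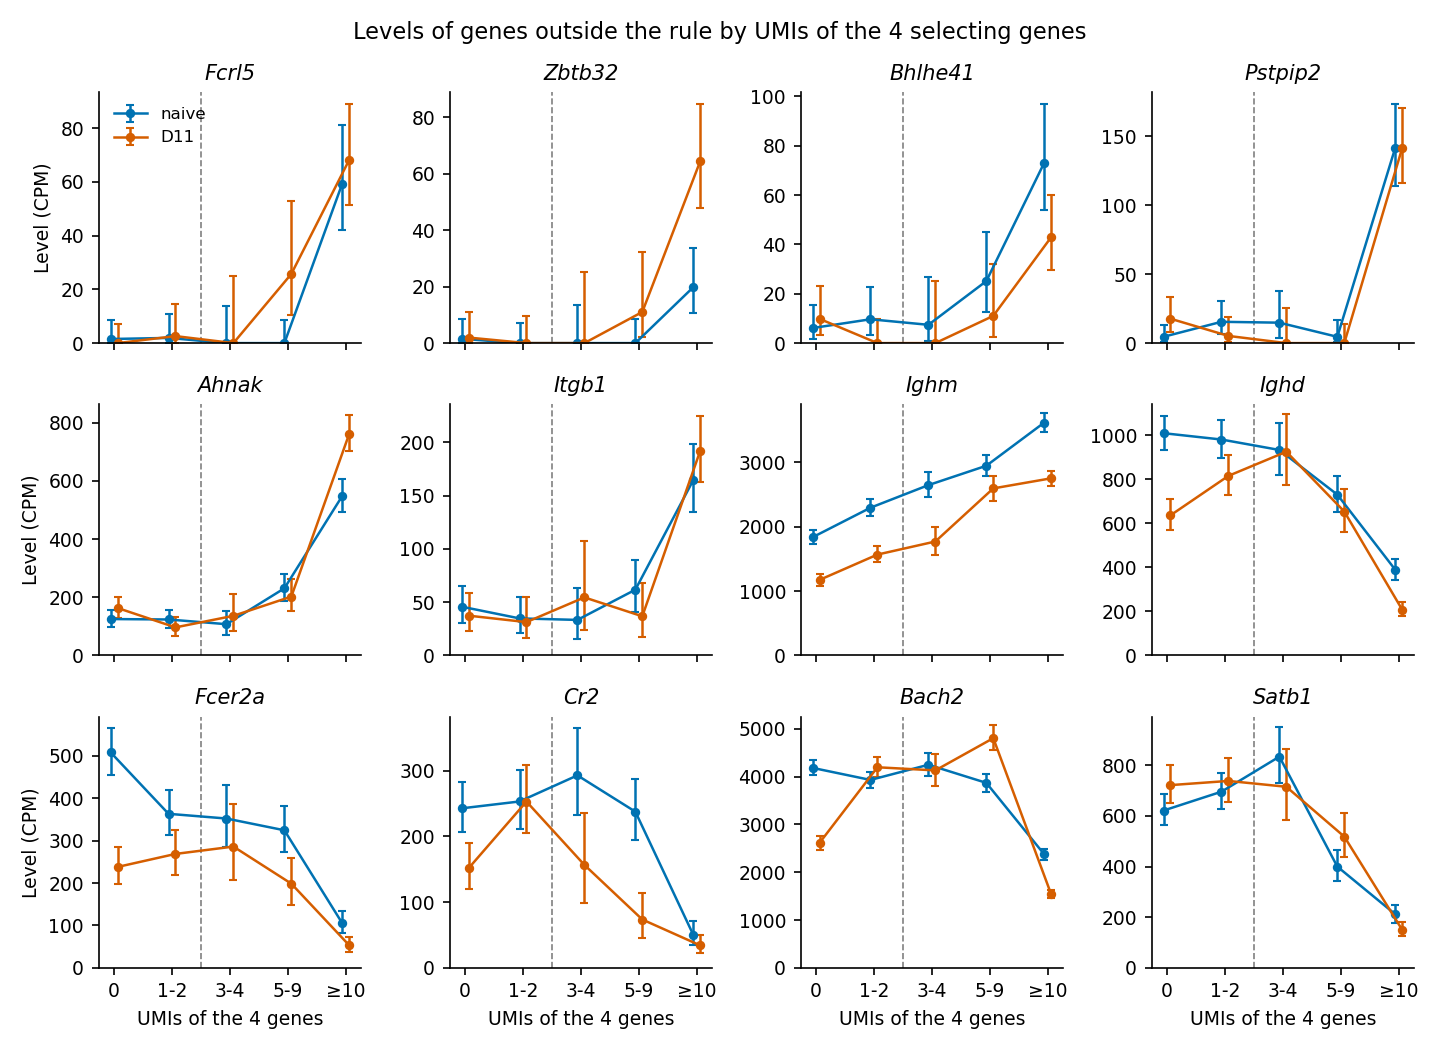
Level in CPM (y axis) of 12 genes by gate UMIs per cell (x axis, 5 classes) in the naive and D11 libraries, with exact 95% Poisson intervals as error bars. Fcrl5, Zbtb32, Bhlhe41, Pstpip2, Ahnak and Itgb1 were highest at 10 or more gate UMIs, where Ighd, Fcer2a, Cr2, Bach2 and Satb1 were lowest in both libraries.

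Classical B-1 surface markers were sparse, and their excess was small, varied with the library or was absent. Cd5, which separates B-1a from B-1b cells, was at 15.2 CPM in naive and 7.58 CPM in D11 cells with 10 or more gate UMIs, against 6.82 and 2.24 CPM in other B cells, and was detected in 9 of 68 and 5 of 77 such cells against 6 of 201 and 2 of 146 other B cells. Spn (CD43) was at 22.8 and 32.8 CPM in those cells, against 5.97 CPM in naive and 40.3 CPM in D11 other B cells, so the direction of its level differed between libraries, although it was detected in a larger share of these cells in both (8 of 68 and 11 of 77, against 4 of 201 and 9 of 146). Single cells gave 12 of the 26 D11 UMIs of Spn in cells with 10 or more gate UMIs and 14 of the 36 in other B cells. Cd9 was at 15.2 CPM in naive cells with 10 or more gate UMIs and 15.3 CPM in naive other B cells. At D11 it was at 39.1 against 28 CPM and was detected in 21 of 77 against 11 of 146 cells, and at D14 in 8 of 15 against 4 of 42. Itgam, the CD11b chain, was detected in 2 of 68 naive cells with 10 or more gate UMIs (2.94%) against 5 of 201 other B cells (2.49%), and at D11 in 5 of 77 (6.49%) against 11 of 146 (7.53%). The cells with 10 or more gate UMIs were also the deeper ones. Thinned to 2000 UMIs, Cd5 was left in 1 such cell in each of the naive and D11 libraries. Cd9 was left in 0 of 67 naive and 6 of 77 D11 cells. Itgam was left in 2.99% of such naive cells against 1.51% of other B cells, and in 2.6% against 4.29% at D11. Age-associated B cells are another IgD-low type. Of their marker list, Tbx21 gave no UMI in either class of naive cells nor in D11 cells with 10 or more gate UMIs. In those D11 cells Itgax was at 2.53 CPM and Cxcr3 at 1.26 CPM. Zeb2 was the only gene of that list above 50 CPM in the naive library, at 639 CPM in cells with 10 or more gate UMIs and 553 CPM in other B cells. Values of the list's Cd80, Fcgr4, Nt5e and Lgals1 are not described, and whether some cells were of that type was not tested.

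IgM and IgD transcripts differed in opposite directions between the classes in the naive and D11 libraries, but not at D14. Ighm, the mu heavy chain, was at 3210 CPM in naive B1-like cells and 2040 CPM in other B cells, and at 2600 and 1340 CPM at D11. Ighd, the delta chain, was at 607 against 997 CPM in the naive library and 396 against 714 CPM at D11. The ratio of Ighm to Ighd UMIs was therefore 5.29 in naive and 6.57 in D11 B1-like cells, against 2.04 and 1.88 in other B cells. At D14 both were higher in B1-like cells, Ighm at 2270 against 551 CPM and Ighd at 230 against 168 CPM (log2 ratio 0.45 [-0.02 to 0.92]), and the ratio of their UMIs was 9.88 against 3.27. Split by gate count, the ratio was 9.28 (naive), 13.2 (D11) and 13.7 (D14) in cells with 10 or more gate UMIs, and 3.5, 3.08 and 4.03 in cells with 3 to 9. Fcer2a, which encodes CD23, was at 508 CPM at 0 and 105 CPM at 10 or more gate UMIs in the naive library, and at 238 and 53 CPM at D11. Cr2, which encodes CD21, was at 50.2 and 34.1 CPM in cells with 10 or more gate UMIs, against 247 and 195 CPM in other B cells.

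Cells next to the rule's minimum are few, and their values rest on few UMIs. With exactly 2 gate UMIs, naive B cells held Ighd at 994 CPM, and with exactly 3 they held it at 1100 CPM. At D11 the values were 876 and 719 CPM. Ighm was at 2280 and 2040 CPM in the naive library and at 1630 and 2200 CPM at D11, and Fcer2a at 366 and 442 CPM and at 207 and 240 CPM. Cr2 was at 261 and 330 CPM in the naive library, and at D11 at 161 CPM (24 UMIs) with exactly 2 and 79.8 CPM (7 UMIs) with exactly 3. Fcrl5 gave 0 UMIs in naive cells with 2 and with 3 gate UMIs.

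Among switched isotypes, Igha came from very few B1-like cells. Igha, the alpha chain, gave 2236 UMIs in the naive B1-like cells, of which 1 cell gave 1722 (77%), and 838 UMIs at D11, of which 1 cell gave 821 (98%). Jchain, the joining chain of secreted IgM and IgA, reached 10 UMIs in 2 naive, 1 D11 and 2 D14 B1-like cells and in 0, 2 and 0 other B cells. Ighg3, the IgG3 chain, was spread over more cells, at 21.3 CPM in 18 naive and 23.9 CPM in 21 D11 B1-like cells, against 1.7 and 2.24 CPM in other B cells.

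Lambda light chains were called in a larger share of B1-like than of other B cells, by more than counting error at D11. Of cells whose light chain could be called, 29 of 169 naive B1-like cells (17.2% [11.8 to 23.7]) expressed mainly lambda, against 19 of 190 naive other B cells (10% [6.13 to 15.2]), and the intervals overlap. At D11 the counts were 28 of 142 (19.7% [13.5 to 27.2]) against 8 of 134 (5.97% [2.61 to 11.4]), and the intervals do not overlap. At D14 3 of 26 B1-like cells expressed mainly lambda. Iglc1, a lambda constant gene, was at 906 CPM in naive and 516 CPM in D11 B1-like cells, against 335 and 238 CPM in other B cells. Heavy chain V genes could be assigned in 7 naive, 1 D11 and 2 D14 B1-like cells, and no V gene was shared by more than 2 cells of a library, too few to describe a repertoire from these 3' libraries.

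Across all genes at a mean of 50 CPM or more over the 2 groups compared, 33 of 3439 genes (0.96%) were at least 2-fold higher and 19 (0.552%) at least 2-fold lower in naive B1-like cells than in naive other B cells. At D11 83 of 3262 genes (2.54%) were at least 2-fold higher and 30 (0.92%) lower. The typical difference was small, with a median absolute log2 ratio of 0.198 in the naive and 0.228 in the D11 library. With cells of 10 or more gate UMIs in place of all B1-like cells, 73 of 3431 naive genes (2.13%) were higher and 88 (2.56%) lower, and at D11 108 of 3249 (3.32%) were higher and 94 (2.89%) lower. Cells with 3 to 9 gate UMIs gave 21 higher and 15 lower genes of 3440 in the naive library, and 75 higher and 52 lower of 3305 at D11. No replicate stands behind these counts, the cells were chosen on these same counts, and nothing is read from them beyond their size.

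The genes named next come from the 15 with the largest ratio in each direction, 14 of them each way, by the smaller of the 2 libraries' ratios, among those at a mean of 100 CPM or more over both cell classes in each library. Agbl1 (chr7:76229887-77124698, plus strand), a carboxypeptidase that trims glutamates from tubulin, showed the largest excess. It was at 2160 CPM in naive B1-like cells against 207 CPM in other B cells (log2 ratio 3.38 [3.19 to 3.58]), at 2640 against 267 CPM at D11 (3.31 [3.12 to 3.5]) and at 866 against 33.2 CPM at D14. Its distribution was uneven, with UMIs in 85 of 174 naive B1-like cells and 35 of 201 other B cells, and up to 151 UMIs in a single cell. Unlike Fcrl5, Agbl1 was higher in each successive class of the naive library, at 130, 305, 578, 1540 and 3220 CPM. At D11 the classes stood at 191, 368, 1800, 2680 and 2780 CPM, and at D14 at 42.6, 0, 0, 789 and 1140 CPM. At the rule's edge naive cells held 188 CPM (41 UMIs) with exactly 2 and 791 CPM (120 UMIs) with exactly 3 gate UMIs. Whether a few cells made that edge difference was not tested. Atxn1, which encodes the polyglutamine protein ataxin 1, was at 286 against 25.6 CPM in the naive library (log2 ratio 3.48) and 409 against 110 CPM at D11 (1.90).

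Several further genes of this set are named with their levels in B1-like and then other B cells. Crip1, a small LIM-domain protein, was at 807 against 228 CPM (naive) and 1210 against 325 CPM (D11). Plac8, a small cysteine-rich protein of leukocytes, was at 375 against 113 CPM and 529 against 126 CPM. Pvt1, a long non-coding RNA next to Myc, was at 179 against 77.6 CPM and 191 against 47.1 CPM. Mcu, the pore of the mitochondrial calcium uniporter, was at 188 against 101 CPM and 274 against 76.2 CPM. In the naive library 1 cell with 3 to 9 gate UMIs gave 367 of the 1101 Crip1 UMIs, and without it B1-like cells stood at 549 CPM. Plac8 and Pvt1 were higher at 10 or more gate UMIs, at 601 and 236 CPM in the naive library, than at 3 to 9, at 165 and 126 CPM. Crip1 was at 880 CPM at 10 or more and at 739 CPM at 3 to 9, or 229 CPM without that cell, next to 228 CPM in other B cells. By contrast, Ppm1e, a phosphatase, was at 158 CPM with 10 or more and 157 CPM with 3 to 9 gate UMIs. Its naive log2 ratio to other B cells was 0.92, and it turned to -0.14 without Sox5 in the gate. The remaining genes described, Iglc1, Ly6d, Sept11, Aldh2, Ubash3b, Susd1 and Ahnak, had log2 ratios from 0.73 (Ubash3b and Susd1, naive) to 2.06 (Ahnak, D11).

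**Figure D3:**
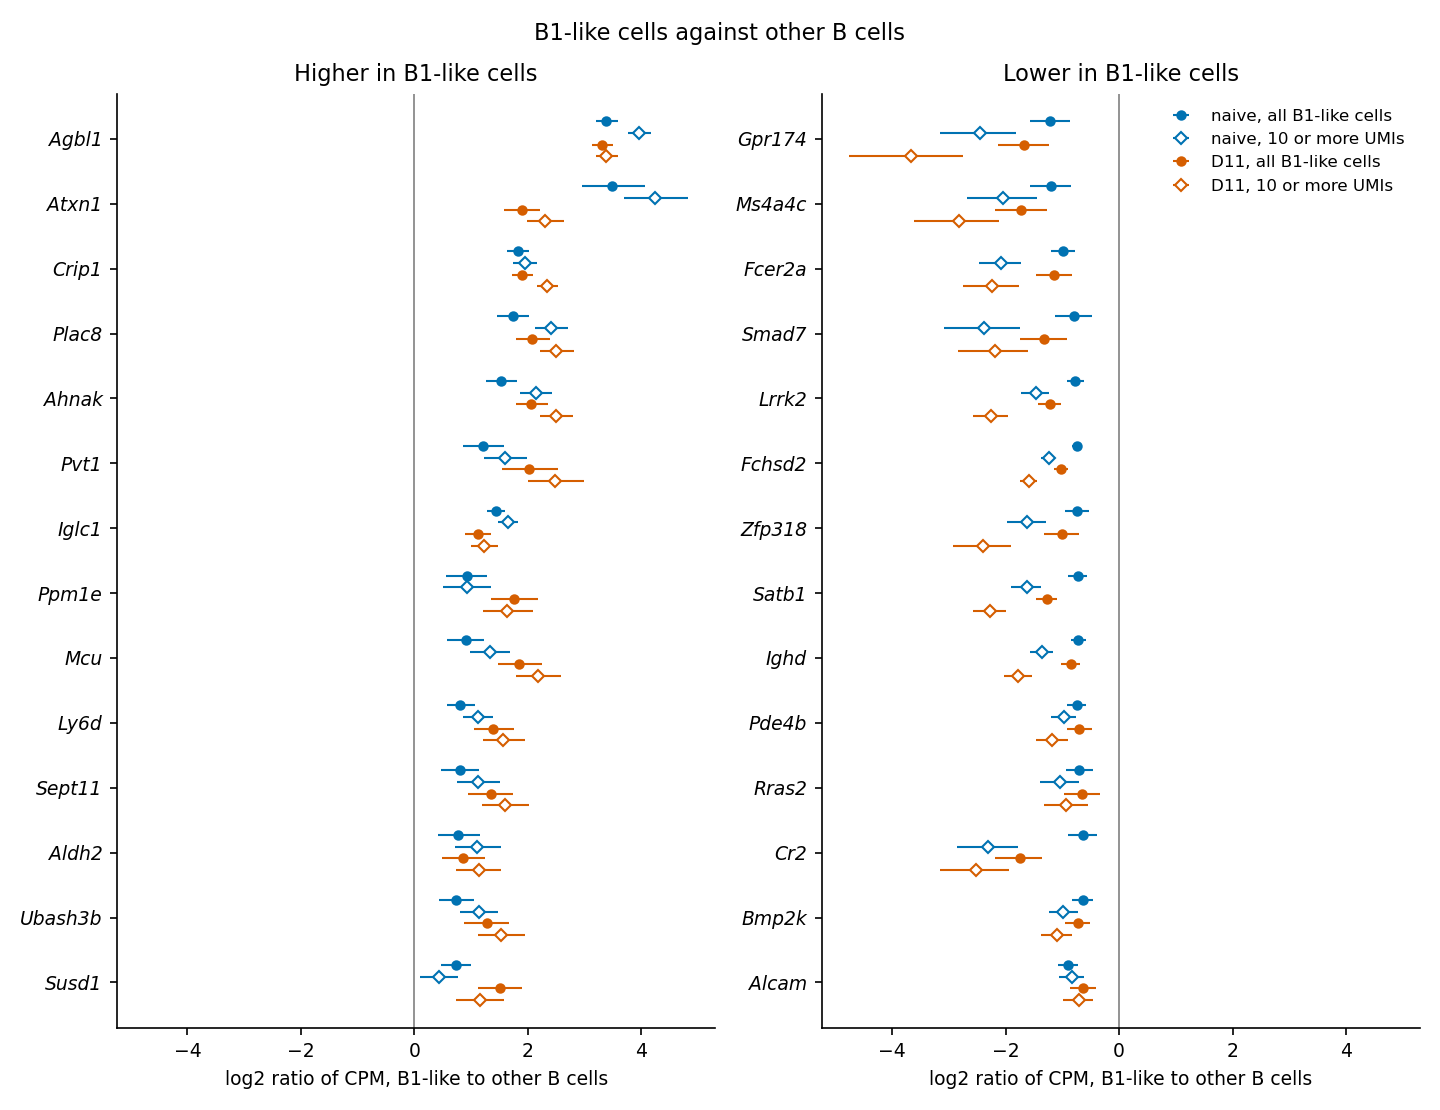
Log2 ratio of CPM in B1-like over other B cells (x axis) for 14 genes of the largest excess and 14 of the largest deficit (y axis), in the naive and D11 libraries, with exact 95% intervals. Filled points stand for all B1-like cells and open diamonds for those with 10 or more gate UMIs, which lie farther from 0 for most genes, for example Gpr174 at -2.45 against -1.21 in the naive library.

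In the opposite direction, Gpr174, a receptor for lysophosphatidylserine, was at 79.1 CPM in naive B1-like cells against 183 CPM in other B cells (log2 ratio -1.21), the lowest naive ratio of the set, and at 50.4 against 160 CPM at D11 (-1.67). Ms4a4c, a membrane protein of the CD20 family, was at 73.3 against 169 CPM and 48.7 against 160 CPM. Satb1, a chromatin organizer, was at 395 against 654 CPM and 301 against 728 CPM. Zfp318, which is needed for IgD expression through the long heavy chain transcript, was at 228 against 380 CPM and 129 against 260 CPM, in the direction of Ighd itself. Ighd, Fcer2a and Cr2, described above, belong to the same 14 genes, and Cr2 had the lowest D11 ratio of them (-1.75). Smad7, Lrrk2, Fchsd2, Pde4b, Rras2, Bmp2k and Alcam completed the set, with log2 ratios from -0.63 (Alcam, D11) to -1.33 (Smad7, D11).

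The deficit was larger in cells with 10 or more gate UMIs than in those with 3 to 9 for 13 of the 14 genes in the naive library and for all 14 at D11. In cells with 3 to 9, the interval of the ratio lay below 0 for 11 of the 14 genes (naive) and for 6 (D11). Over all genes that interval excluded 0, in either direction, for 18.5% (naive) and 22.7% (D11). The 14 genes were chosen on all B1-like cells, including those with 3 to 9. Part of their deficit in that class therefore follows from the choice, and nothing is read from these counts. In naive cells Gpr174 was at 33.5 CPM with 10 or more gate UMIs and 122 CPM with 3 to 9. Satb1 was at 212 and 565 CPM, and Smad7 at 33.5 and 161 CPM. In naive cells with 3 to 9 gate UMIs the log2 ratio to other B cells was -0.59 [-0.97 to -0.23] for Gpr174, -0.21 [-0.39 to -0.03] for Satb1 and -0.11 [-0.45 to 0.23] for Smad7. Alcam, an adhesion molecule, was at 344 CPM with 10 or more and 314 CPM with 3 to 9 gate UMIs, both below the 610 CPM of other B cells.

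Gene lists were described by counts over members measured at a mean of 10 CPM or more and by medians over those at 50 CPM or more, beside the median of all genes at 50 CPM or more, which was -0.00 in the naive and 0.03 in the D11 library. Over all those genes 50% were higher and 50% lower in naive B1-like cells, and 54% higher and 46% lower at D11. Of 18 B-1 markers outside the gate, 12 were measured in the naive comparison, 9 were higher and 3 lower in B1-like cells, and the median log2 ratio over its 3 genes at 50 CPM or more was 0.44. At D11 15 were measured, 11 were higher and 4 lower, with a median of 0.90 over 6 genes. The naive median changed sign, to -0.15, when CPM was averaged over cells in place of summed, so its direction depends on that choice. Over the same genes, the medians in cells with 10 or more gate UMIs were 1.33 (naive) and 1.24 (D11). Of 10 follicular B genes, which include Ighd, Fcer2a, Bach2 and Satb1, 8 were lower in both libraries, with medians of -0.33 and -0.56. All 10 MHC class II genes were lower in the naive library and 9 of 10 at D11, with medians of -0.47 and -0.37. Among them H2-Aa, an alpha chain, was at 1910 against 2680 CPM (naive) and 1810 against 2380 CPM (D11), and Ciita, the master regulator of the class, at 199 against 291 CPM and 127 against 182 CPM.

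Lists for signaling machinery hardly departed from the median of all genes. For B cell receptor signaling, 12 of 18 genes were higher in the naive and 10 of 18 in the D11 library, with medians of 0.05 and 0.11. B-cell transcription factors split 11 higher and 10 lower in the naive library, with a median of 0.03. For the homing receptors 7 of 16 were higher in the naive and 6 of 16 in the D11 library, and among its genes at 50 CPM or more Itgb1 had the highest ratio (log2 1.37 and 2.01). Ptpn22, a phosphatase that restrains antigen receptor signaling, was at 182 against 119 CPM (naive) and 431 against 219 CPM (D11).

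The interleukin 5 pathway beyond its gate gene showed 1 clear partner. Csf2rb, the common beta chain through which Il5ra signals, was at 20.5 CPM in naive B1-like cells against 5.97 CPM in other B cells and at 48.7 against 12.3 CPM at D11. In cells with 10 or more gate UMIs it was at 36.5 and 65.7 CPM, and in those with 3 to 9 at 5.65 and 16.7 CPM. Pim1, a kinase whose gene is a target of STAT5, was at 147 against 89.5 CPM in the naive library and 251 against 102 CPM at D11. Of the 15 list genes other than Il5ra, 11 were measured in the naive library, 3 higher and 8 lower (median -0.11), and 12 at D11, 6 higher and 6 lower (median -0.00). Stat5b changed sides, at 90.1 against 129 CPM in the naive library and 133 against 93 CPM at D11.

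Between libraries, B1-like cells at D11 differed from naive B1-like cells by at least 2-fold in 48 genes that were higher (1.42% of 3386) and 20 that were lower (0.591%). Other B cells differed in 57 higher (1.72% of 3315) and 41 lower genes (1.24%). Because cells with 10 or more gate UMIs were 39.1% of naive and 52% of D11 B1-like cells, the 2 libraries differ in the make-up of the B1-like cells, and values for cells with 10 or more gate UMIs alone are given beside the main ones. Those cells gave 60 higher genes (1.79% of 3346) and 60 lower (1.79%). The median log2 ratio of D11 to naive over all genes was -0.11 in B1-like and -0.16 in other B cells. Both comparisons rest on the same 2 libraries, so a whole-library difference enters both.

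RNA of red cells and neutrophils moved with this comparison. The erythroid list took 0.0189% of the UMIs of naive B1-like cells, 6.35% at D11 and 5.35% at D14, with Hbb-bs, a beta globin, the most abundant at 119 CPM in naive and 31100 CPM in D11 cells. The neutrophil list of 7 genes summed to 246 CPM in the naive library (1 gene at 0), 5490 CPM at D11 (none at 0) and 2170 CPM at D14, with S100a9 the most abundant at 132, 3240 and 1280 CPM. At D14 1 cell gave 380 of the 422 S100a9 UMIs, and the level without it was 135 CPM. In other B cells the erythroid list took 0.566%, 10% and 1.74% of UMIs. S100a9, S100a8 and Retnlg, which are neutrophil genes, therefore head the D11 excess of B1-like cells, with log2 ratios of 4.62, 4.36 and 4.50. Single cells weigh on both ends of these ratios. In the naive library 1 cell gave 128 of 180 S100a9 UMIs, 1 gave 81 of 114 S100a8 UMIs and 1 gave 16 of 19 Retnlg UMIs, and at D11 the largest cell gave 1342 of 3920, 793 of 2081 and 216 of 382. Without barcodes that held over 1% hemoglobin UMIs or 10 or more S100a8 and S100a9 UMIs, 173 naive, 125 D11 and 24 D14 B1-like cells remained, and the 3 ratios were 1.15, 0.59 and 1.54. For S100a8 and S100a9 that drop follows from the filter itself, which counts their UMIs. Mkrn1, a ubiquitin ligase, went from 1.46 to -0.04 with the same barcodes left out.

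Of the other genes with the largest D11 excess, Gab2, Sertad2, Jun and Ccnd2 had log2 ratios of 1.79, 1.81, 1.68 and 1.53 without those barcodes, beside 1.91, 1.68, 1.48 and 1.36 with them. Junb went from 1.28 to 0.95. S100a6, a calcium-binding protein, was at 111 CPM in naive B1-like cells (15 of 174 cells, with 57 of 152 UMIs in 1 cell), 533 CPM at D11 (45 of 148 cells) and 1120 CPM at D14, where 1 cell gave 178 of 371 UMIs and the level without it was 620 CPM. Its D11 to naive log2 ratio was 2.26 [2 to 2.52], and 2 without the barcodes above. In cells with 10 or more gate UMIs the ratio was 1.93 [1.66 to 2.21], and in other B cells it was 0.10 [-0.35 to 0.54], from 81.8 to 87.4 CPM. T cells of the same blood also showed S100a6 more often at D11, in 50.4% of cells against 15.2% in the naive library and 67.3% at D14. Gab2, a docking adaptor downstream of cytokine receptors, went from 45.4 to 171 CPM in B1-like cells (1.91 [1.5 to 2.35], and 2.39 at 10 or more gate UMIs) and from 69 to 43.7 CPM in other B cells (-0.66 [-1.25 to -0.09]). Sertad2, a transcriptional coregulator, went from 51.3 to 164 CPM (1.68, and 1.46 at 10 or more), and from 52 to 65 CPM in other B cells. Whether S100a6, Gab2 or Sertad2 differed between B1-like and other B cells in their response was not tested.

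Immediate early genes were mostly higher at D11. In B1-like cells all 12 measured genes of the list were higher, with a median log2 ratio of 0.77, beside -0.11 and 35.3% of genes higher over all genes. The median was 0.82 at 10 or more gate UMIs, 0.47 without the hemoglobin, S100a8 and S100a9 barcodes and 0.41 with called doublets removed. In other B cells 12 of 14 were higher, with a median of 0.44 beside 31.2% of all genes. Jun went from 110 to 307 CPM in B1-like cells (1.48, and 1.89 at 10 or more gate UMIs) and from 87.8 to 170 CPM in other B cells (0.96). Junb went from 137 to 334 CPM (1.28, and 1.25 at 10 or more) and from 216 to 345 CPM (0.68). Of 9 measured heat shock genes, all were higher in B1-like cells (median 0.34), and 8 of 8 in other B cells (0.58). Ccnd2, cyclin D2, went from 63.8 to 164 CPM in B1-like cells (1.36, and 1.85 at 10 or more) and from 24.7 to 51.6 CPM in other B cells (1.06 [0.36 to 1.78]), while in cells with 3 to 9 gate UMIs its ratio was -0.83 [-1.78 to 0.04]. Cycling cells, with 5 or more UMIs of the cell cycle list, were 0 of the naive, 2 of the D11 and 2 of the D14 cells with 10 or more gate UMIs.

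**Figure D4:**
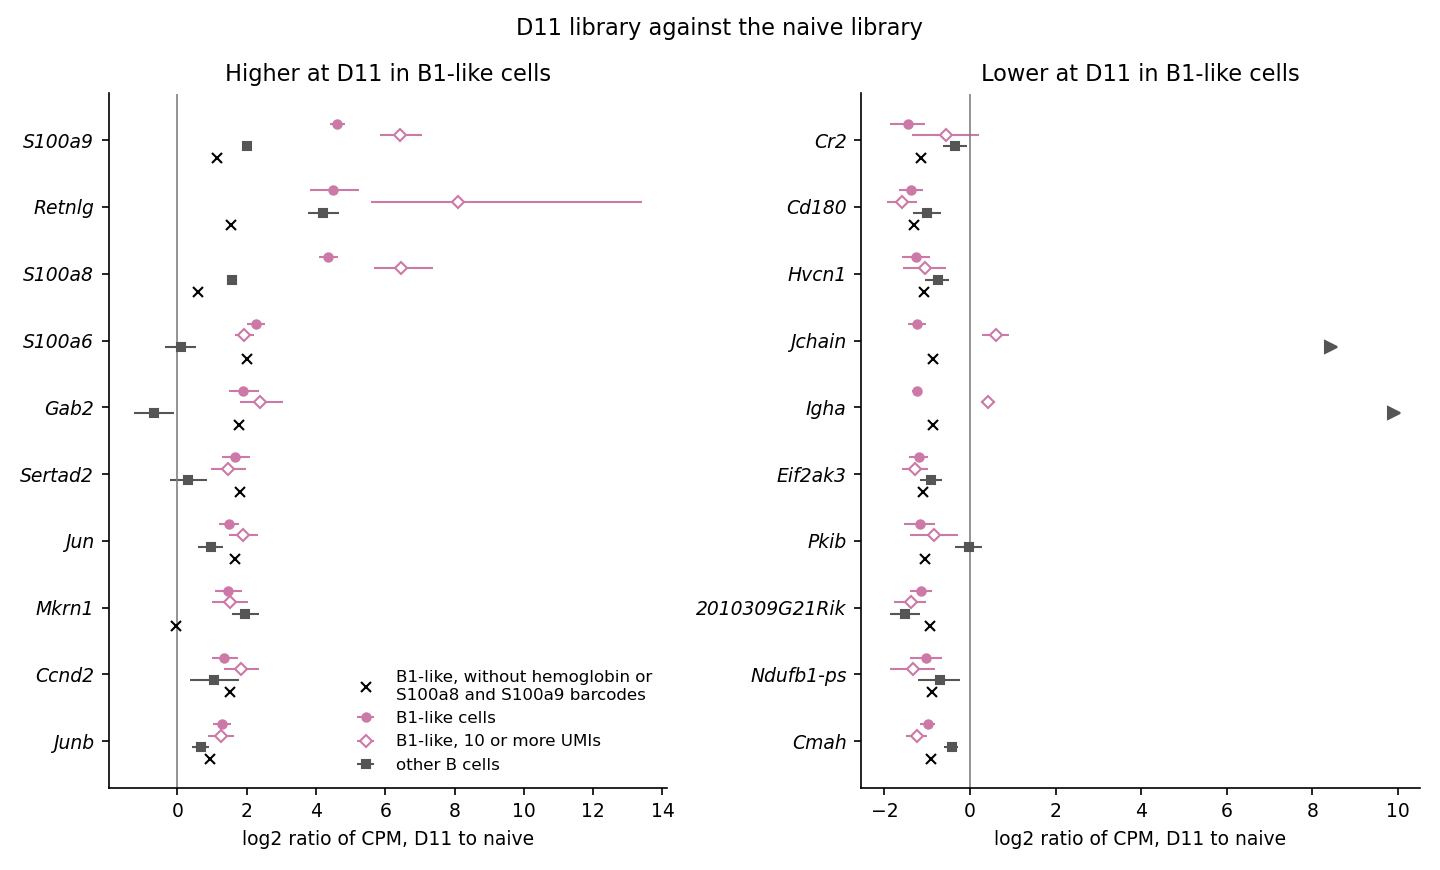
Log2 ratio of D11 over naive CPM (x axis) for the 10 genes with the largest excess and the 10 with the largest deficit in B1-like cells (y axis), with exact 95% intervals, for all B1-like cells, those with 10 or more gate UMIs, other B cells, and B1-like cells without hemoglobin or S100a8 and S100a9 barcodes (crosses). Right-pointing triangles are lower bounds against 0 UMIs, and the crosses of S100a8 (0.59), Retnlg (1.54) and Mkrn1 (-0.04) fall far left of their points.

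Among genes lower at D11, Cd180, a Toll-like receptor relative that responds to bacterial products, went from 320 CPM in naive B1-like cells to 123 CPM at D11 and 93.9 CPM at D14, a D11 log2 ratio of -1.38 [-1.66 to -1.11], and from 245 to 122 CPM in other B cells (-1). Hvcn1, a proton channel, went from 205 to 85.9 CPM (-1.26), Eif2ak3, the kinase PERK of the unfolded protein response, from 439 to 192 CPM (-1.20), and Cmah, the enzyme that makes N-glycolylneuraminic acid, from 738 to 371 CPM (-0.99). At 10 or more gate UMIs the ratios of Cd180, Hvcn1, Eif2ak3 and Cmah were -1.59, -1.06, -1.29 and -1.25. All 4 were also lower in other B cells, at -1, -0.76, -0.91 and -0.43. Cr2 had a ratio of -1.45 [-1.86 to -1.06] over all B1-like cells and of -0.56 [-1.35 to 0.22] over those with 10 or more gate UMIs, an interval that includes 0. Pkib, an inhibitor of protein kinase A, went from 168 to 74.3 CPM in B1-like cells (-1.18, and -0.84 at 10 or more) and from 176 to 173 CPM in other B cells. The unnamed transcript 2010309G21Rik (-1.15) and Ndufb1-ps (-1.03) were lower too, the first by more in other B cells (-1.52). Igha and Jchain, both at -1.24, rest on the few cells described above, and over cells with 10 or more gate UMIs their ratios were 0.42 and 0.60.

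B-1 genes outside the gate differed between naive and D11 cells in both directions. In cells with 10 or more gate UMIs the D11 to naive log2 ratio was 0.20 [-0.42 to 0.83] for Fcrl5, -0.77 [-1.45 to -0.1] for Bhlhe41 and 1.70 for Zbtb32, which went from 19.8 to 64.4 CPM and from 9 of 68 to 27 of 77 cells. In T cells of the same libraries Zbtb32 was detected in 17 of 1167 (1.46%) and 13 of 246 (5.28%). Over all genes 64.7% were lower at D11 in B1-like cells, 64.4% in those with 10 or more gate UMIs and 68.8% in other B cells. Beside these shares, all 10 follicular genes were lower in B1-like cells (median -0.35), 9 of 10 at 10 or more gate UMIs (-0.52) and 9 of 10 in other B cells (-0.26). Of 10 MHC class II genes 9 were lower in B1-like cells (-0.27), 7 at 10 or more gate UMIs (-0.12) and 10 in other B cells (-0.24). Of 18 B cell receptor signaling genes 15, 15 and 17 were lower, with medians of -0.27, -0.33 and -0.30.

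At D14 only 29 B1-like cells with 330270 UMIs were left, 15 of them with 10 or more gate UMIs. Fcrl5 was detected in 8 of these 15 and in 0 of 42 other B cells, Pstpip2 in 7 of 15 and 2 of 42, and Fcer2a in 1 of 15 and 14 of 42. Other markers differed less or the other way. Ighd was detected in 13 of 15 and 18 of 42 (224 CPM at 10 or more gate UMIs against 168 CPM in other B cells), Cr2 in 4 of 15 and 10 of 42, and Zbtb32 in 7 of 15 and 8 of 42. Over all genes at D14, 40.2% were higher and 59.8% lower in B1-like than in other B cells. Of the 14 genes named above for their excess, 9 were higher and 5 lower, with intervals that exclude 0 for 8 and 3. Those lower were Ly6d at 90.8 against 497 CPM, of which 1 other B cell gave 214 of 239 UMIs, Susd1 at 57.5 against 116 CPM, Pvt1 at 236 against 320 CPM, Ppm1e at 54.5 against 66.5 CPM and Sept11 at 212 against 226 CPM. Of the 14 named for their deficit, 6 were lower and 8 higher, with an interval that excludes 0 for 1 gene in each direction. The D14 other B cells were unlike those of the other libraries, since 13 of 42 (31%) were cycling by the cell cycle list and S100a6 stood at 1700 CPM, or 895 CPM without 1 cell that gave 414 of its 818 UMIs. The pro-B and leukemia list of 10 genes summed to 312 CPM in D14 other B cells, against 97.2 CPM in naive and 43.7 CPM in D11 other B cells, and to 81.3 (naive), 31.4 (D11) and 57.5 (D14) CPM in B1-like cells, with 7, 7 and 5 genes at 0. The rule itself limits 4 of its genes, Vpreb1, Igll1, Dntt and Rag1, in both classes. Lef1 was the most abundant of that list in every group, at 218 CPM in D14 other B cells. The share of leukemic cells among the D14 other B cells was not tested. The D14 differences from other B cells are therefore given as values only, and nothing more is read from them.

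Besides the red cell and neutrophil RNA given above, markers of other cell types were read as summed lists. The plasma cell list of 8 genes summed to 731 (naive), 423 (D11) and 1080 (D14) CPM in B1-like cells, with Jchain the most abundant, and to 133, 1170 and 326 CPM in other B cells. The T-cell list of 8 genes summed to 38.1 CPM in naive, 25.6 CPM in D11 and 21.2 CPM in D14 B1-like cells, with 2, 4 and 6 genes at 0 and Lck the most abundant. The NK list of 5 genes summed to 54.2 CPM in the naive library, mostly Gzma at 38.1 CPM, of which 1 cell gave 51 of 52 UMIs, and to 0 in naive cells with 10 or more gate UMIs. The monocyte list of 8 genes summed to 133, 204 and 51.5 CPM, with Lyz2 the most abundant in the naive and D11 libraries, with 123 of 134 naive Lyz2 UMIs in 1 cell, and was at 136 and 322 CPM in naive and D11 other B cells. A doublet caller marked 6 naive, 9 D11 and 3 D14 B1-like cells, against 7, 10 and 3 other B cells. Median mitochondrial shares in B1-like cells were 3.29%, 3.53% and 4%.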

How the data were processed

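The authors deposited 1 filtered matrix per library of UMI counts per gene and barcode, made from 10X 3' V3 libraries with Cell Ranger 7.1.0 on mm10 per the labels (the matrix headers name version 5.0.1), with no normalization. Counts were summed over the cells of each library and class and divided by the class's UMI total (CPM). Because each condition is 1 library, no test, p-value or standard error was computed. Intervals are 95% Clopper-Pearson for shares and exact Poisson or conditional binomial for levels and ratios. A ratio against 0 UMIs was set at a floor of 3 counts. The cell rule, the members and all lists (30 lists, 303 genes) were chosen with earlier results of these data known. Genes at a mean of 50 CPM or more over the 2 classes entered the 2-fold counts. Named genes were the 15 with the largest ratio in each direction, ranked on the smaller of the naive and D11 ratios, and the 10 with the largest D11 to naive ratio in each direction, at a mean of 100 CPM or more, leaving out gate, V, D and J segment, ribosomal, mitochondrial and hemoglobin genes. A few items that the rules select are not reported here. V genes were assigned at 3 or more UMIs and 70% of the locus. Positions follow GENCODE vM21, which matched 32235 of 32285 identifiers, and 38 symbols had more than 1 identifier. Scrublet ran at an expected 0.8% doublets per 1000 cells, and its calls were kept in the main values. The counting and interval code was tested on simulated data. Tools were Python 3.11.15, numpy 2.4.6, scipy 1.17.1, pandas 2.3.3, scanpy 1.11.5 and matplotlib 3.10.9, with R 4.3.3 and edgeR 4.0.16 for TMM factors only. Alternatives changed the gate, quality filters, gene minimum, scaling and doublets. Those with 10 or more gate UMIs, with 10 or more per 10000 UMIs, and without hemoglobin, S100a8 and S100a9 or Jchain barcodes were chosen after seeing the data. PCR duplicates are collapsed by UMIs, and intervals cover counting error only.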

Additional observations from a re-analysis of the deposited data

Results flagged for a closer look

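For 6 genes flagged here the 2 ratios pointed in opposite directions, and none of these differences was tested, since each library stands alone. Other genes named above did so too. For Mcu the D11 to naive ratio was 0.55 [0.31 to 0.79] in B1-like cells and -0.4 [-0.85 to 0.04] in other B cells. Gab2 in B1-like over other B cells had a log2 ratio of -0.60 in the naive library and 1.97 at D11, and its D11 to naive ratio was 1.91 in B1-like and -0.66 in other B cells. Stat5b, a transcription factor downstream of the interleukin 5 receptor, had ratios of -0.51 and 0.52 between the cell classes and 0.56 and -0.47 between the libraries. For Satb1 the D11 to naive ratio was -0.39 in B1-like and 0.16 in other B cells. Igkc, the kappa constant gene, had ratios of 0.89 (naive) and -0.69 (D11) between the classes, and -0.53 (B1-like) and 1.05 (other B) between the libraries. Jchain had 7.51 and -2.18 between the classes and -1.24 and 8.45 between the libraries, and Igha had 9.32 and -1.84, and -1.24 and 9.92. The Jchain and Igha values of 7.51, 8.45, 9.32 and 9.92 are lower bounds against 0 UMIs in naive other B cells, and they rest on a few cells with many UMIs of these genes.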

How the results depend on the processing

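No paired analysis was possible because each condition is 1 library, and for the same reason no replicate was left out. Of 332 alternative values for the shares, 2-fold counts and list medians, 239 moved little, 92 moved and 1 reversed. The rule without Nid1, TMM scaling and thinned sums moved none of them. Shares are given as naive, D11 and D14 percent of B cells, counts as higher and lower genes, and the cause of each shift was not tested except where fewer genes or cells enter by construction.

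With at least 2 gate UMIs the shares were 56.3 and 59.2%, the naive counts 20 and 11, and other B cells had 62 lower genes at D11, as they also had under stricter quality limits (500 genes or more, mitochondrial UMIs of 5% or less). With at least 5 gate UMIs the shares were 35.5 and 41.2%, D11 to naive lower genes 33 in B1-like and 26 in other B cells, the naive B-1 list median 0.80 and the follicular medians -0.53 and -0.77. Without Cacna1e in the gate the shares were 31.5 and 33.3%, the D11 lower count 47, the D11 to naive lower counts 43 and 19, the naive B-1 median 1.04 and the D11 follicular median -0.90. Without Il5ra the naive share was 40% and the B-1 median 0.77. Without Sox5 the shares were 36 and 38.8%, the lower counts over time 37 and 23 and the B-1 median 0.81. With doublets removed the B-1 median was 1.28. Against B cells with 0 gate UMIs, lower counts were 32 (naive) and 61 (D11), other B cells over time had 102 and 153, the B-1 median was 1.28 and the D11 follicular median -0.24.

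With immunoglobulin, ribosomal, mitochondrial and hemoglobin genes left out of the total, D11 lower genes were 50 and other B cells over time had 90 and 26. With the mean of per-cell CPM, the naive B-1 list median reversed to -0.15 and other B cells had 32 higher genes over time. At a minimum of 20 CPM the counts were 106 and 61 (naive), 198 and 112 (D11), 124 and 90 (D11 to naive, B1-like) and 141 and 161 (other B), at 200 CPM 7 and 6, 11 and 8, 11 and 7, and 13 and 10, and with no minimum 1092 and 1008, 1121 and 1133, 1106 and 1021, and 1052 and 1077. Thinned to 2000 UMIs with at least 1 gate UMI, the shares were 50.9 and 59.9%. Of all cells kept, shares were 4.57, 3.24 and 0.657%.

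With 10 or more gate UMIs the shares were 18.1, 26.2 and 21.1%, the naive counts 73 and 88, D11 lower genes 94, D11 to naive lower genes 60, the naive B-1 median over the same 3 genes 1.33, the follicular medians -0.72 and -1.28 and the naive MHC class II median -0.72. With 10 or more per 10000 UMIs they were 26.9, 36.7 and 23.9%, 63 and 48, 130 and 64 (D11), 31, 1.04, and -0.53 and -0.77. Without hemoglobin, S100a8 and S100a9 barcodes, lower genes were 10 (naive), 48 (D11) and 25 (other B over time), and the naive B-1 median was 1.45.

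Of the named genes, D11 to naive ratios of Jchain and Igha reversed without Cacna1e in the gate (0.15 and 4.15), with doublets removed (6.51 and 9.9), with 10 or more gate UMIs (0.60 and 0.42) and without cells holding 10 or more Jchain UMIs (0.17 and 4.25). Without Sox5 in the gate Ppm1e (-0.14) reversed in the naive library, and without hemoglobin and S100 barcodes Mkrn1 reversed at D11 (-0.04). Depth limits the rarer markers, since Zbtb32 in naive cells with 10 or more gate UMIs was 13.2% as counted and 0 of 67 at 2000 UMIs.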
